A study of Mus musculus with 12 samples.

Results

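The regenerating islet-derived (Reg) genes encode small secreted C-type lectins. Levels of 5 of them, Reg1, Reg3a, Reg3b, Reg3g and Reg4, were followed across the study. Members were found by matching the Ensembl identifiers of the count table to GENCODE M21 symbols, and all 5 were present among 54109 identifiers. Reg2 and Reg3d, the other Reg genes of the mouse cluster, are given beside them. The mice had acute colitis from dextran sulfate sodium (DSS), which damages the colonic epithelium and was given in every group, controls included. Wild-type (WT) mice and Gpr15l-/- mice (KO), which lack a chemoattractant ligand for the receptor Gpr15, were each sampled as full colon and as LPMC. LPMC commonly means lamina propria mononuclear cells, an immune-cell preparation from below the gut epithelium. Each of the 4 groups had 3 libraries, 12 in all; the sources used here give no strain, age, sex, DSS dose or number of animals per library.

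Reg3b and Reg3g are made by gut epithelial cells and released into the mucus. Reg3g binds peptidoglycan and kills Gram-positive bacteria, and Reg3b also acts on Gram-negative bacteria. Both genes are known targets of IL-22, which signals through STAT3 in epithelial cells, and of MyD88-dependent sensing of microbes. Reg4 marks deep crypt secretory cells of the mouse colon and some enteroendocrine cells. Reg1, Reg2, Reg3a and Reg3d are best known from the exocrine pancreas, where Reg1 is induced by injury.

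Libraries held 45.4 to 140.7 M counts (M for 1e6). Counts of the deleted gene, annotated as 2610528A11Rik, were 15639 to 80362 in WT and 14 to 20 in KO colon, and 18619 to 32405 in WT and 4 to 10 in KO LPMC, which matched the genotype labels. No label ties a library to an animal, so each p-value reflects library-to-library spread that could be partly technical. Levels are CPM, counts per 1e6 after TMM scaling, and all log2 fold changes and adjusted p-values are from edgeR's quasi-likelihood test with Benjamini-Hochberg adjustment over all genes tested, called under 0.05. The LPMC libraries were not free of epithelial RNA. The summed level of 13 pan-epithelial markers was 13089 to 18783 CPM in LPMC and 20720.0 to 39199 CPM in colon, while 12 leukocyte markers summed to 501 to 1760 CPM in LPMC and 72.6 to 1304 CPM in colon. Colon KO replicate 2 stood apart on the second principal component (-85.05, against -10.68 to 52.47 in the other colon libraries). It had the highest pan-epithelial sum and the lowest leukocyte sum of the 12 libraries. Its sums of 10 absorptive colonocyte markers (11169 CPM) and of 8 smooth muscle markers (2140 CPM) were also the highest.

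In the GENCODE M21 annotation of GRCm38, 6 Reg genes lie within 98.2 kb of chromosome 6. Reg3b (ENSMUSG00000071356) spans 78370657 to 78373466 on the plus strand, Reg3a (ENSMUSG00000079516) 78380709 to 78383827 on the plus strand, Reg1 (ENSMUSG00000059654) 78422711 to 78428667 on the plus strand and Reg3g (ENSMUSG00000030017) 78466269 to 78468872 on the minus strand. Reg3d and Reg2 lie between Reg3b and Reg1. Reg4 (ENSMUSG00000027876) lies alone on chromosome 3 from 98222156 to 98236748 on the plus strand. All are protein-coding. The longest coding transcripts of Reg3b and Reg3g matched at 67.7% of aligned positions, and no stretch of 50 bases was shared between any of the Reg genes. For Reg1, 32 of its 876 distinct stretches of 50 bases also occur in transcripts of genes outside the family, so a part of its reads could have been assigned elsewhere or dropped.

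Upstream sequence was compared because Reg3b and Reg3g levels moved together across libraries while Reg4 did not follow them. RefSeq promoters (GRCm38.p6) were available for all 7 Reg genes, and the 250 bases before each RefSeq start were searched on both strands. Reg3b and Reg3g had the highest promoter identity of the Reg gene pairs, 68.4%. Reg3a had a promoter identity of 45.1% with Reg3b. Its level also followed that of Reg3b within the 6 colon libraries (Pearson r = 0.99), but not within the 6 LPMC libraries (0.27). Whether promoter sequence bears on the levels was not tested. The stretch from 178 to 22 bases before the start (to 24 for Reg3b) is given 5′ to 3′ on the gene's own strand, with the motifs searched in capitals. The Reg3b stretch lies inside the GENCODE M21 span of the gene, which begins at 78370657, so the RefSeq start used is downstream of the GENCODE start.
Reg3b chr6:78370707-78370861 (+ strand): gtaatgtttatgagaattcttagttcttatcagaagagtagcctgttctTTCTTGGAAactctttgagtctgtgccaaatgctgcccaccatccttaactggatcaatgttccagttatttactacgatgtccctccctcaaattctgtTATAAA
Reg3g chr6:78468896-78469052 (- strand): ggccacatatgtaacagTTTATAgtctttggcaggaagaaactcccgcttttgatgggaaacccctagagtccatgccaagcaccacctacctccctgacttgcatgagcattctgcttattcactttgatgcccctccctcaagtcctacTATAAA
Reg3a chr6:78380531-78380687 (+ strand): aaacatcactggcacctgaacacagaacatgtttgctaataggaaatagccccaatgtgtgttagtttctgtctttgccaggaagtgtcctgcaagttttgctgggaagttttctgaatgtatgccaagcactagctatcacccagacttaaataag
Reg4 chr3:98221978-98222134 (+ strand): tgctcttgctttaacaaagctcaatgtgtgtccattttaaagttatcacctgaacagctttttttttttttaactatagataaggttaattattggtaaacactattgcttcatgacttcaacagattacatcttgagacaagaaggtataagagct
The motifs were TATAAA, the core TATA box, and TTCNNNGAA, the spacing bound by STAT factors, and they did not overlap each other. TATAAA occurred in 4 of 7 Reg promoters and in 12.4% of 32851 RefSeq promoters. In Reg3b it lay 29 to 24 bases before the start and in Reg3g 27 to 22 bases before it, with a further copy on the other strand of Reg3g 161 to 156 bases before the start. TTCNNNGAA occurred in 2 of 7 Reg promoters, those of Reg3b and Reg3d, and in 7.0% of all. In Reg3b it read TTCTTGGAA, 129 to 121 bases before the start. Neither motif was found in the Reg3a and Reg4 windows, which says only that these letters are not in those bases.

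Reg3b was the most abundant Reg transcript in every LPMC library. Its levels there were 5303, 5704 and 7639 CPM in WT and 2584, 4559.9 and 3363 CPM in KO. Per kb of transcript it ranked 2 to 5 among 54042 genes, and it held 0.272 to 0.78% of an LPMC library's counts. In colon, Reg3b was at 386, 7.99 and 18.0 CPM in WT and at 24.6, 4718 and 17.6 CPM in KO. Thus most colon libraries were at 24.6 CPM or less, while colon KO replicate 2 reached LPMC levels and colon WT replicate 1 lay between them. The highest and lowest colon libraries of a genotype differed 48.3-fold in WT and 268-fold in KO, against 1.44-fold and 1.76-fold in LPMC.

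Reg3g followed Reg3b library by library. LPMC levels of Reg3g were 1023, 1126 and 1648 CPM in WT and 403, 790.4 and 675 CPM in KO. In colon they were 174, 4.51 and 9.34 CPM in WT and 9.70, 1636 and 6.37 CPM in KO. The same 2 colon libraries were high. On log2 CPM centred within each tissue, Reg3b and Reg3g had a Pearson r of 1.00 over the 12 libraries and of 0.99 within the 6 LPMC libraries, given as a description since points of a library share its scaling. Per kb of transcript, group means of Reg3b were 175 ± 275 (SD, n = 3) in colon WT, 2027 ± 3463 in colon KO, 7938 ± 1596 in LPMC WT and 4473 ± 1271 in LPMC KO. The same means of Reg3g were 81.1 ± 125, 714 ± 1219, 1642 ± 434.5 and 808 ± 258, so Reg3b stood above Reg3g in each group. The colon means carry SDs larger than themselves.

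**Figure D1:**
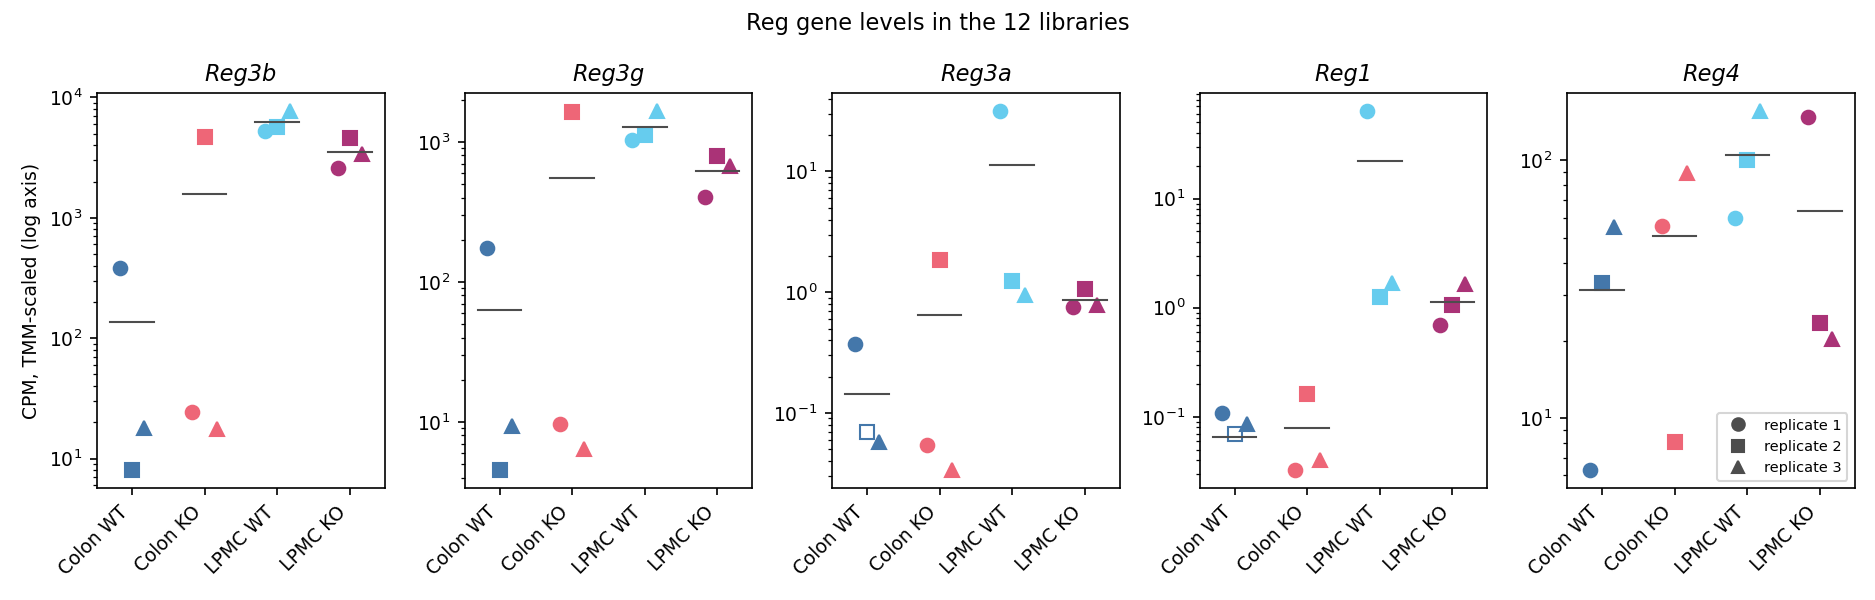
Levels of the 5 Reg genes in the 12 libraries, as TMM-scaled CPM on a log axis; each point is a library, shaped by replicate number, the line is the mean of the 3 libraries of a group, and an open point is a library with 0 counts drawn at its 3-count limit. Reg3b and Reg3g are high in all 6 LPMC libraries and in colon KO replicate 2 (4718 CPM of Reg3b), and Reg1 and Reg3a are high in LPMC WT replicate 1.

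Colon from KO and WT mice was set side by side to see what loss of Gpr15l does to the inflamed tissue. No Reg gene passed the test in colon, and the KO and WT libraries overlapped for every member tested. Reg1 and Reg3a had too few reads to enter the fit, so 3 of 5 members were tested and 0 were called, against 0.00518% of 19303 genes. Of the 3, 0 had an unadjusted p under 0.05 by edgeR, against 7.79%. DESeq2 called 0, against 0.166%, but it gave no adjusted p for Reg3b and Reg3g, so neither could have been called. KO libraries lay all above WT libraries for 7.78% of genes and all below for 6.53%. The log2 fold change of Reg3b was 3.52 (SE 2.32, adjusted p = 0.691), that of Reg3g 3.12 (SE 2.23, adjusted p = 0.705) and that of Reg4 0.68 (SE 0.93, adjusted p = 0.841). A single library set the direction for the lectins. Without colon KO replicate 2 the log2 fold change became -2.73 for Reg3b and -2.99 for Reg3g, and without colon WT replicate 1 it became 6.94 and 6.32. In bulk RNA, a lower level from fewer cells of a type and from less RNA per cell cannot be told apart.

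In LPMC, every KO library lay below every WT library for Reg3b and Reg3g, but neither passed the test. The log2 fold change was -0.83 for Reg3b (SE 0.24, unadjusted p = 0.0117, adjusted p = 0.998 by edgeR) and -1.03 for Reg3g (SE 0.30, unadjusted p = 0.0121, adjusted p = 0.998 by edgeR). Of 5 members tested, 0 were called, against 0.0103% of 19426 genes, and DESeq2 called 0, against 0.175%. All 5 fold changes were negative, with a median of -1.03 against 0.00 over all genes tested. KO libraries were all below WT libraries for 2 of the 5 members, against 3.74% of all genes, and 4 of the 5 had an unadjusted p under 0.05, against 2.64%. Those of Reg1 and Reg3a rested on LPMC WT replicate 1, without which their fold changes went from -4.28 and -3.69 to -0.36 and -0.35. Within the 6 LPMC libraries, the Pearson r was 0.99 for Reg3b with Reg3g and 0.98 for Reg1 with Reg3a. The members of such a pair are thus not separate observations in these counts. Reg3b and Reg3g kept their negative sign in each of the 6 fits without a library, at -1.06 to -0.65 and -1.22 to -0.79.

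Pan-epithelial markers in LPMC overlapped between genotypes, with sums of 15630 to 18783 CPM in WT and 13089 to 18202 CPM in KO; of the 13, 12 had negative fold changes (median -0.14), 2 had all KO libraries below all WT libraries and 0 were called. All 10 absorptive colonocyte markers had negative fold changes in LPMC KO (median -0.68, 0 called), and their summed level was 2765 to 4676 CPM in WT and 1368 to 3095 CPM in KO. For 4 of the 10, all KO libraries lay below all WT libraries, against 3.74% of all genes. Leukocyte markers were positive for 12 of 12 (median 0.58), neutrophil markers for 7 of 8 (median 1.91), and goblet and enteroendocrine markers for 9 of 9 each (medians 0.24 and 0.29), while smooth muscle markers were negative for 8 of 8 (median -0.91), with 0 called in each list. The part of these cell types in the lectin values was not tested. Relative to the mean of the pan-epithelial markers, Reg3b differed between KO and WT LPMC by -0.70 log2 units, from 2.64 ± 0.15 (SD, n = 3) in WT to 1.94 ± 0.29 in KO (two-sided exact permutation p = 0.10, adjusted p = 0.40 over 8 such tests). Reg3g differed by -0.90, from 0.33 ± 0.23 to -0.57 ± 0.46 (exact permutation p = 0.10, adjusted p = 0.40). With 3 libraries against 3 an exact p cannot go under 0.10, so these tests could not pass. The other 6 relative levels gave unadjusted exact permutation p-values of 0.40 to 0.60.

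The interaction asked whether the KO to WT difference in LPMC differed from that in colon. No gene was called among 20989 (0.0%), so 0 of 5 Reg genes were, with 1 of 5 at an unadjusted p under 0.05 against 4.69% of all genes, and DESeq2 called 0 Reg genes, against 0.0143%. The interaction was -4.36 (SE 2.57) for Reg3b and -4.16 (SE 2.51) for Reg3g on the log2 scale, both with an adjusted p of 0.902 by edgeR. Without colon KO replicate 2 these values became 1.87 and 1.94. The sign of the interaction thus rested on that library for both lectins.

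**Figure D2:**
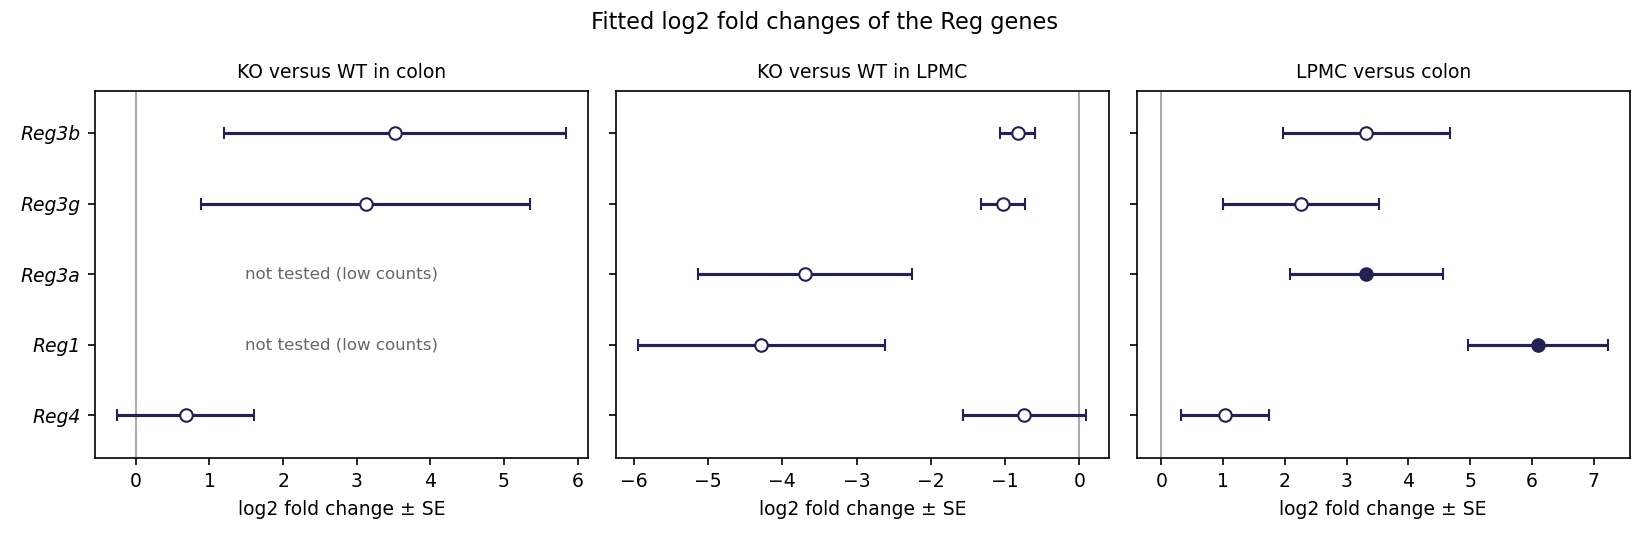
Fitted log2 fold changes of the 5 Reg genes with their SE, for KO against WT in colon, KO against WT in LPMC and LPMC against colon; filled points passed the test and genes left out of a fit for low counts are marked. The SE of Reg3b is 2.32 in colon and 0.24 in LPMC, and Reg1 (6.10) and Reg3a (3.32) pass the test in LPMC against colon.

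The balance between the lectin pair was steadier than their levels. Colon WT libraries held 2.22, 1.77 and 1.93 Reg3b counts per Reg3g count and colon KO libraries 2.54, 2.88 and 2.76. LPMC WT libraries held 5.19, 5.06 and 4.64 and LPMC KO libraries 6.42, 5.77 and 4.98. Every LPMC library lay above every colon library, including colon KO replicate 2, whose Reg3b level was that of LPMC. The log2 ratio was 2.41 ± 0.17 (SD, n = 6) in LPMC and 1.21 ± 0.28 (SD, n = 6) in colon, a difference of 1.20 (two-sided exact permutation p = 0.00216). This comparison was chosen after the values were seen, so its p is not independent evidence; without each library in turn the difference was 1.12 to 1.26. Between genotypes, the 3 KO colon libraries lay above the 3 WT libraries, by 0.47 log2 units (exact permutation p = 0.10, the smallest possible, adjusted p = 0.20 over 2 tests). The LPMC ratios overlapped and differed by 0.20 (exact permutation p = 0.30, adjusted p = 0.30).

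**Figure D3:**
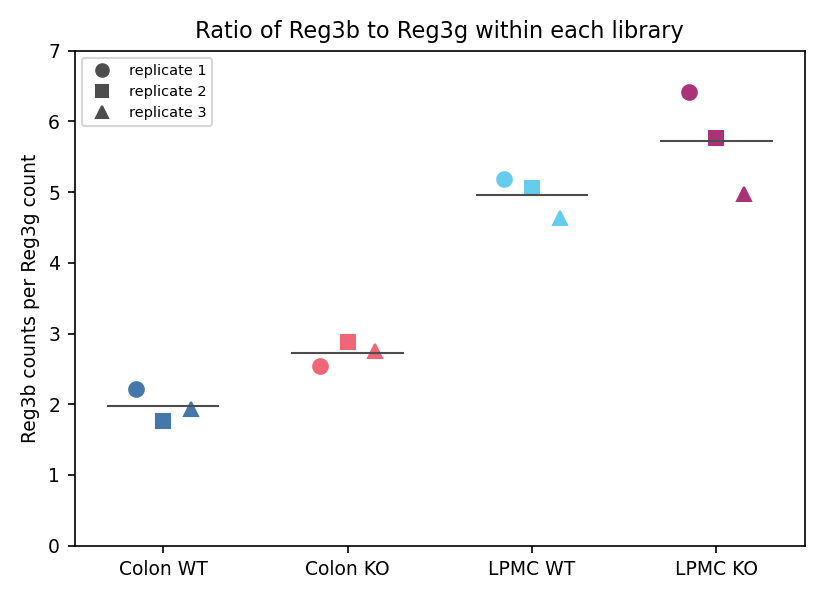
Reg3b counts per Reg3g count in each of the 12 libraries (linear axis from 0), with points for libraries and a line for the group mean. Colon libraries run from 1.77 to 2.88 and LPMC libraries from 4.64 to 6.42.

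Reg4 did not share the pattern of the lectins. Its levels were 6.28, 33.4 and 55.0 CPM in colon WT, 55.5, 8.09 and 89.3 CPM in colon KO, 59.9, 100.7 and 155 CPM in LPMC WT and 147, 23.4 and 20.2 CPM in LPMC KO. KO and WT libraries overlapped within each tissue. LPMC and colon libraries overlapped in KO, and in WT they were apart only by 59.9 against 55.0 CPM. The share of all genes apart in this way in WT was not counted. Over both genotypes Reg4 did not pass in LPMC against colon (adjusted p = 0.249 by edgeR). In colon, the libraries with the most Reg3b, colon KO replicate 2 and colon WT replicate 1, were those with the least Reg4. On centred log2 CPM the Pearson r of Reg4 with Reg3b was -0.62 over 12 libraries, -0.84 within the 6 colon libraries and 0.24 within the 6 LPMC libraries, as a description. In LPMC KO, replicate 1 held 7.30 times the Reg4 of replicate 3. The LPMC log2 fold change of Reg4 was -0.74 (SE 0.83, adjusted p = 0.998 by edgeR), and -2.27 without that replicate 1. Markers of deep crypt secretory cells, the cells Reg4 is known from, went both ways in LPMC KO, with 5 of 7 positive, a median of 0.08 and 0 of 7 called. Among them Mptx1 was at -3.81 (SE 1.10, adjusted p = 0.998 by edgeR), with all KO libraries below all WT libraries, as in 3.74% of all genes. Its levels were 2.26 to 55.7 CPM in LPMC WT and 1.34 to 2.12 CPM in LPMC KO, so the groups were barely apart.

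**Figure D4:**
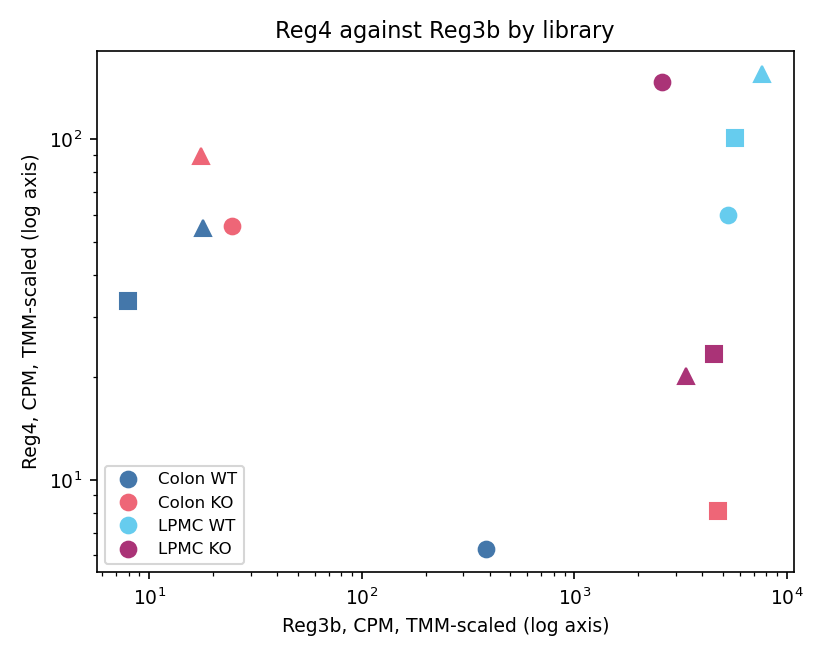
Reg4 against Reg3b in each library, both as TMM-scaled CPM on log axes, coloured by group. The 6 LPMC libraries sit at 2584 CPM of Reg3b or more, and in colon the 2 libraries with the most Reg3b have the least Reg4 (6.28 and 8.09 CPM).

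Reg1 and Reg3a were scarce outside a single library. Reg1 had 9, 0 and 6 counts in colon WT and 3, 10 and 6 in colon KO. In LPMC WT it had 6604, 124 and 86 counts (62.9, 1.25 and 1.68 CPM), and in LPMC KO 95, 87 and 126 counts (0.691, 1.06 and 1.66 CPM). LPMC WT replicate 1 thus stood far above every other library. The 0 counts in colon WT replicate 2 allow a level of up to 0.0697 CPM, taking 3 counts as the limit; this covers counting error of independent reads only and is too low where the mates of a pair are counted separately. Reg3a behaved alike in LPMC, with 31.4, 1.25 and 0.956 CPM in WT and 0.749 to 1.07 CPM in KO. In colon Reg3a was at 0.374, 0 and 0.0573 CPM in WT and 0.0538, 1.84 and 0.0335 CPM in KO. It was highest in colon KO replicate 2 (113 counts) and then colon WT replicate 1 (31 counts), as Reg3b and Reg3g were in colon.

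The neighbouring genes were also highest in LPMC WT replicate 1. Reg2 was at 74.2 CPM in LPMC WT replicate 1 and at 0.252 CPM or less in the other 11 libraries, and Reg3d at 10.7 CPM there against 1.01 CPM or less. Pancreatic acinar markers stood out in the same library. Their summed level was 1193 CPM there and 42.2 to 124 CPM in the other 11, with all 14 markers highest there and 10 of the 14 over 10-fold above every other library. The amylase gene Amy2a5 had only 6 counts there, against 0 elsewhere, and Cela1 was at 128.7 CPM against up to 117.3 CPM elsewhere. Chymotrypsinogen Ctrb1 had 30080 counts there against at most 62 elsewhere, trypsinogen Prss2 11816 against at most 20, and carboxypeptidase Cpa1 9114 against at most 42, with Cpa1 at 0 in 8 of the other 11. Whether this signal accounts for the Reg1, Reg2, Reg3a and Reg3d levels of that library was not tested. Reg3b and Reg3g were not highest in that library; both were lowest there among the 3 LPMC WT libraries.

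**Figure D5:**
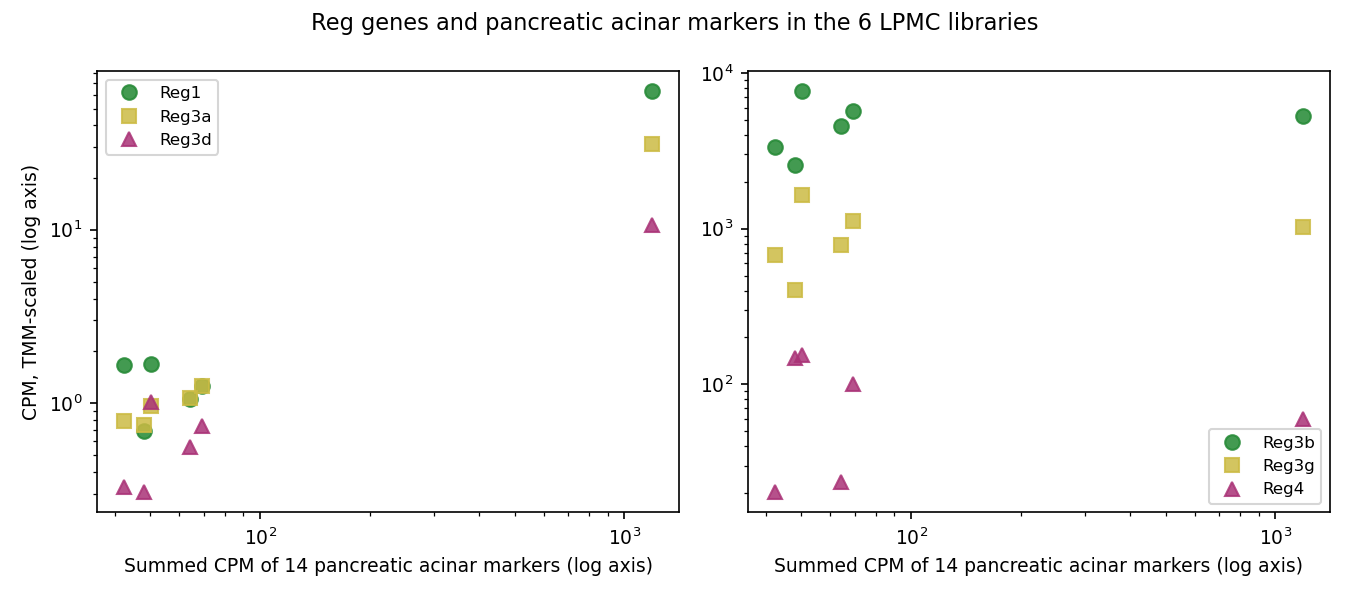
Level of each Reg gene (TMM-scaled CPM, log axis) against the summed CPM of 14 pancreatic acinar markers (log axis), with a point per LPMC library; Reg1, Reg3a and Reg3d are on the left and Reg3b, Reg3g and Reg4 on the right. LPMC WT replicate 1, at 1193 CPM of acinar markers, is highest for the left-hand genes and not for the right-hand genes.

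The KO to WT log2 fold changes of these genes in LPMC were -4.28 for Reg1 (SE 1.66), -3.69 for Reg3a (SE 1.44) and -3.40 for Reg3d (SE 1.14), each with an adjusted p of 0.998 by edgeR. Without LPMC WT replicate 1 that of Reg3d was -1.14. Reg2 had too few reads in the other libraries to be tested.

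LPMC against colon asked in which material each member was higher, over both genotypes. Reg1 rose by 6.10 on the log2 scale (SE 1.14, adjusted p = 0.00144 by edgeR) and Reg3a by 3.32 (SE 1.24, adjusted p = 0.0444), so 2 of 5 members were called higher, against 25.4% of 20989 genes. Reg3b at 3.32 (SE 1.35, adjusted p = 0.0608), Reg3g at 2.26 (SE 1.26, adjusted p = 0.159) and Reg4 at 1.03 (SE 0.71, adjusted p = 0.249) did not pass. Lower calls made up 24.9% of genes and included 0 members. Reg1 was also the member whose 6 LPMC libraries all lay above the 6 colon libraries, as in 14.5% of genes. DESeq2 called 1 member, Reg3b (adjusted p = 0.0127), against 55.0% of genes, and gave no adjusted p for Reg1, Reg3a and Reg3g. Outside the members, Reg3d rose by 4.14 (SE 0.98, adjusted p = 0.00519 by edgeR). The median of the 5 was 3.32, against 0.01 over all genes tested. Of 13 pan-epithelial markers, 1 was called higher and 8 lower (median -0.70), and of 10 absorptive colonocyte markers 0 and 6 (median -1.94). Deep crypt secretory markers had 5 of 7 called higher and 1 lower (median 1.34), and leukocyte markers 5 of 12 and 0 (median 1.57). All genes had 25.4% called higher and 24.9% lower. The part of these cell types in the Reg levels was not tested. The Reg1 call held without each of the 12 libraries in turn, at 4.14 to 6.54 (adjusted p = 0.000453 to 0.00675 by edgeR). The calls of Reg3a, Reg3b and Reg3g turned on single libraries. Without LPMC WT replicate 1, Reg3a was not called (1.65, adjusted p = 0.209). Without colon KO replicate 2, Reg3b (6.42, adjusted p = 0.00178) and Reg3g (5.29, adjusted p = 0.00289) passed by edgeR. Without colon WT replicate 1 they passed as well, at 5.02 (adjusted p = 0.0168) and 3.84 (adjusted p = 0.0365). The Reg3a call held in 4 of the 12 fits without a library.

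Other genes of the pathway were read from lists of known roles. None of the lists had a called member in KO against WT in either tissue. The IL-22 and STAT3 axis had 14 of 26 members higher in LPMC than in colon and 3 lower, against 25.4% and 24.9% of all genes, with a median of 0.90. Il22, the cytokine that induces Reg3 genes, rose by 3.80 on the log2 scale in LPMC (SE 0.81, adjusted p = 0.0031 by edgeR). The gene was picked after its values were seen. Its levels were 28.2, 19.2 and 19.0 CPM in LPMC WT and 6.45, 7.29 and 19.5 CPM in LPMC KO, with a fitted log2 difference of -0.99 (SE 0.47, adjusted p = 0.998 by edgeR). The groups overlapped through LPMC KO replicate 3. In colon, Il22 had 0 counts in KO replicate 2, the library with the most Reg3b, which by the same 3-count limit allows up to 0.0489 CPM, and 0.258 to 3.38 CPM in the other 5. The receptor subunit Il22ra1, found on epithelium, fell by 1.34 in LPMC against colon (SE 0.18, adjusted p = 0.000137 by edgeR), while the soluble decoy receptor Il22ra2 rose by 2.22 (SE 0.74, adjusted p = 0.0274) and the cytokine Osm by 2.28 (SE 0.77, adjusted p = 0.0303). Il17ra was at 0.32 (SE 0.15, adjusted p = 0.102).

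Of 12 genes of the Toll-like receptor and MyD88 axis, 6 were called higher and 2 lower in LPMC than in colon, against 25.4% and 24.9% of all genes. The flagellin receptor Tlr5 rose by 2.58 (SE 0.21, adjusted p = 6.31e-06 by edgeR) and Il18 fell by 1.75 (SE 0.33, adjusted p = 0.00154), whereas Tlr4 (-0.36, SE 0.17) and the adaptor Myd88 (0.14, SE 0.12) did not pass. Between genotypes in colon, Tlr5 was at 1.71 (SE 0.40, adjusted p = 0.632 by edgeR) with all KO libraries above all WT libraries, as in 7.78% of all genes. Its colon levels were low, at 0.348 to 0.652 CPM in WT and 1.31 to 1.86 CPM in KO. For Il18 in LPMC the value was -0.52 (SE 0.15, adjusted p = 0.998). Extl3, a glycosyltransferase reported as a receptor for Reg proteins, rose slightly in LPMC (0.41, SE 0.11, adjusted p = 0.00862 by edgeR), from group means of 43.3 ± 4.32 and 51.8 ± 8.97 CPM (SD, n = 3) in colon WT and KO to 60.6 ± 7.20 and 65.0 ± 2.48 CPM in LPMC. Of its list of 5 exostosin genes, 3 were called higher, against 25.4% of all genes, and 0 lower, against 24.9%, Ext1 among them (0.40, SE 0.10, adjusted p = 0.00732), while Extl1 (0.47, SE 0.49) and Extl2 (0.28, SE 0.16) did not pass.

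Epithelial defence genes outside the Reg family had lower levels in LPMC for 13 of 24 tested members, against 24.9% of all genes, and higher levels for 2, against 25.4%, with a median of -1.04. The acute-phase gene Saa1 fell by 6.21 (SE 0.30, adjusted p = 2.13e-07 by edgeR), from 872 to 2090.0 CPM over the colon libraries to 9.58 to 36.7 CPM over the LPMC libraries, without overlap. Saa2 fell by 6.05 (SE 0.31, adjusted p = 3.21e-07), the protease inhibitor Wfdc2 by 1.89 (SE 0.23, adjusted p = 8.14e-05) and the dual oxidase partner Duoxa2 by 1.49 (SE 0.17, adjusted p = 4.81e-05). Saa1 and Saa2 are close copies, so their split of reads is uncertain. Of the 24, 9 had positive and 15 negative fold changes. The 2 called higher were Retnlb at 1.40 (SE 0.48, adjusted p = 0.0319 by edgeR) and Pigr at 0.75 (SE 0.24, adjusted p = 0.0212). The fold changes of Reg3b and Reg3g were positive as well, and neither passed the test. Whether they differ from those of the defence genes was not tested. In LPMC KO against WT the defence genes went both ways, with 15 of 24 positive, 9 negative, a median of 0.14 and 0 called. All KO libraries lay below all WT libraries for 3 of the 24, against 3.74% of all genes. Saa1 was among these, at -1.55 (SE 0.21, adjusted p = 0.751 by edgeR).

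The genes most like each member were taken by Pearson r on log2 CPM centred within tissue over the 12 libraries, among 12146 genes, as a description. For Reg3b these were Cpn1, the catalytic subunit of carboxypeptidase N (r = 0.99), the nucleotide hydrolase Nudt16 (0.98) and the lipid hydrolase Abhd4 (0.98). For Reg3g they were Cpn1 (0.98), Abhd4 (0.97) and the adrenergic receptor Adra2a (0.97). These values rested on the colon spread, since within the 6 LPMC libraries r was 0.74 for Reg3b with Cpn1 and 0.44 for Reg3g with Adra2a. Cpn1 reached 31.7 CPM in colon KO against a group median of 1.35 CPM. For Reg4 the nearest genes were the mitotic kinase Haspin (0.92), the formin Diaph3 (0.89) and Depdc1b (0.89). For Reg1 they were the potassium channel Kcnk3 (0.87), Nnat (0.86) and the pancreatic lipase relative Pnliprp2 (0.85), and for Reg3a Adamtsl5 (0.90), Kcnk3 (0.88) and the corepressor Tle2 (0.88). In LPMC WT, Pnliprp2 had a highest library of 11.5 CPM against a group median of 0.624 CPM. It was not low in colon, at 6.83 to 17.0 CPM in WT and 4.43 to 5.36 CPM in KO. Its r with Reg1 was 0.96 within the 6 LPMC libraries and 0.22 within the 6 colon libraries.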

How the data were processed

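Stranded poly(A) RNA libraries from colon and LPMC were read on an Illumina instrument, per the labels' protocols. STAR and the builds GRCm38 and mm10 are named in the submitters' processing notes; for the counting tool, annotation, strand setting and filters, nothing is given in the sources used here. Read counts per Ensembl gene are whole numbers that the authors deposited without normalization, in a table of all 12 libraries. Columns were matched to samples by library name. Of 54109 identifiers, 54042 matched GENCODE M21 and 67 did not. Low counts were mostly even (66.6 to 76.6% of counts of 1 to 20 per library), so the counting error exceeds what independent counts would give. Without a stated strand setting, overlapping genes cannot be told apart.

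Counts were tested in R 4.3.3 with edgeR 4.0.16 (TMM, filterByExpr with a minimum count of 10, robust quasi-likelihood F-test), with genotype fitted on the 6 libraries of a tissue, and the interaction and LPMC against colon on all 12. The SE is the size of the log2 fold change divided by the square root of F. Log2 CPM used a prior count of 2, and levels per kb the longest coding transcript. Single values were compared with exact permutation tests (scipy 1.17.1), and identities came from Biopython 1.88. DESeq2 1.42.0, its size factors, no filter, a replicate block and fits without a library were alternatives. The edgeR step was tested on simulated data. Replicate numbers were not taken as pairs, since the labels do not tie them to animals and not every same-numbered correlation of deviations was over 0.1. Same-numbered WT and KO libraries correlated at -0.133 to 0.042 in colon and -0.23 to 0.24 in LPMC. Same-numbered colon and LPMC libraries correlated at 0.081 to 0.163 in WT and 0.064 to 0.303 in KO. Different-numbered ones correlated at -0.218 to 0.05 in WT and -0.257 to 0.191 in KO. Shared animals across tissues cannot be told from these data. The fits of all 12 libraries and the tissue test of the Reg3b to Reg3g ratio treated libraries as independent, which shared animals would break.

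Members and the 17 gene lists were chosen with earlier results of these data known. Named were all Reg genes, the deleted gene, up to 4 members per list by the lower of the 2 KO against WT p-values, and 3 genes per member by likeness; not all list members so named are described. Il22 and the acinar gene names given were picked after their values were seen. So were Retnlb and Pigr, the defence genes called higher in LPMC than in colon.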

Additional observations from a re-analysis of the deposited data

How the results depend on the processing

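Over the alternatives other than leaving out a library, 123 values kept their direction and side of the threshold or stayed near their count, 10 counts moved by over 1.5 times, 1 value reversed, 1 gained a call and 2 lost it. With DESeq2, genes called numbered 32 in colon (1 by edgeR), 34 in LPMC (2 by edgeR) and 3 for the interaction (0 by edgeR). Without the filter on low counts LPMC had 4 calls, and in the fit of all 12 libraries colon had 2. With the replicate number as a block, 0 genes were called in colon and 0 in LPMC, the colon log2 fold change of Reg3b was 0.25 and that of Reg3g turned to -0.22 (adjusted p = 0.996 by edgeR). The numbers were not taken as pairs. In LPMC against colon, 1 Reg gene was called without the filter, 1 with DESeq2 and 1 with the block. Reg3a was lost without the filter (3.32, adjusted p = 0.109 by edgeR) and with the block (3.39, adjusted p = 0.0554), and Reg3b passed with DESeq2 (3.29, adjusted p = 0.0127). DESeq2 gave no adjusted p for Reg1, Reg3a and Reg3g there, nor for Reg3b and Reg3g in colon. The cause of these shifts was not tested.

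Without each library in turn, genes called were 0 to 1 in colon, 1 to 2 in LPMC, 0 for the interaction and 9451 to 10790.0 for LPMC against colon, where 1 to 4 Reg genes were called. The colon log2 fold change ran from -2.73 to 6.94 for Reg3b and from -2.99 to 6.32 for Reg3g, and the interaction from -7.76 to 1.87 and from -7.33 to 1.94. Colon levels relative to pan-epithelial markers ran from -0.34 to 3.64 for Reg3b, from -0.77 to 3.08 for Reg3g and from -0.08 to 2.17 for Reg4. Colon libraries of a genotype lay up to 268-fold apart in Reg3b, which limits what the colon test could call.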
